A study of Solanum tuberosum with 36 samples.

Results

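The genes described here are 100 potato genes whose normalized number of reads was higher on day 10 of drought than on day 0 in Gwiazda and Oberon, and not higher in Tajfun and Owacja. They were picked by that pattern among 25289 genes in leaf RNA-seq data of 4 cultivars of Solanum tuberosum. In all, 15322 genes had a mean above 10 normalized reads in both groups of each of the 12 tables that compare days within a cultivar. For these, the log2 ratio of the day 10 mean to the day 0 mean was taken in each cultivar. A gene met the bounds when the ratio was at least 0.5 in Gwiazda and in Oberon and at most 0 in Tajfun and in Owacja. This held for 149 genes, 0.972% of those above the minimum, and the 100 with the widest gap between the smaller Gwiazda or Oberon ratio and the larger Tajfun or Owacja ratio were kept.

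Gwiazda is a drought-tolerant cultivar that the study paired with the drought-sensitive Oberon, and the drought-tolerant Tajfun was paired with the drought-sensitive Owacja. The cultivars of a pair are related by descent, so the pattern that defines these genes runs between pairs and not between tolerance classes. Pot-grown plants stopped being irrigated 3 weeks after tubers began to form, and leaves from 3 different plants of each cultivar were taken on days 0, 6 and 10 of drought. Day 0 plants were the watered controls. No library of watered plants on day 6 or 10 was analysed here, so drought, plant age and time in the experiment cannot be told apart.

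When soil dries, roots and leaves make abscisic acid, a hormone that closes stomata and switches on genes for protective proteins such as dehydrins. Leaves then cut back photosynthesis and growth and, later, sugars, proline and chaperones accumulate. RAB18, a dehydrin gene that abscisic acid induces, served as a check of the day 0 labels against those of drought. It was higher on day 10 than on day 0 in all 4 cultivars, and its ranges on days 6 and 10 overlapped. It therefore checks neither the cultivar labels nor day 6 against day 10. It had 32.1 to 180 normalized reads in the 12 libraries of day 0, 917 to 6099 in the 12 of day 6 and 691 to 3842 in the 11 of day 10, with no overlap between day 0 and either drought day.

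The deposited tables hold group means. Each group mean occurs in 3 tables with 3 different scalings, and solving these gave whole reads for single libraries in all 25289 genes (within 0.001 reads). The tables hold 35 libraries of 34298072 to 41041276 reads, 3 in each group except Oberon on day 10, which has 2 where the labels list 3. Even the lowest of these totals is above the highest number of mapped reads that the study gives for a library. The recovered units, called reads here, therefore need not equal mapped reads, and the reason was not found. A library has no replicate number, so it is named here by its read total within its group. Levels of single libraries are given below as normalized reads, after a common scaling of the 35 libraries. The day 6 libraries of Gwiazda and Oberon correlated least with those of their own group, the lowest being the Oberon day 6 library with the fewest reads (mean Pearson's r 0.22 across genes, against up to 0.79 in the other groups). The gene identifiers could not be paired with names in the annotation used here, where 0 of 25289 matched, and the markers of leaf tissue were therefore not checked. A list of 33 genes was taken from the study, made up of 23 selected genes, 8 stable genes, RAB18 and cyclophilin. Of these, 23 passed the minimum, 2 met the bounds and 1, cyclophilin (PGSC0003DMG400001630), was among the 100. The other gene that met the bounds, one of 23 genes selected by the study, ranked 119 of 149.

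Cyclophilins are peptidyl-prolyl cis-trans isomerases, enzymes that help proteins fold, and cyclophilin genes often serve as a loading control in RT-PCR. The study amplified this one beside RAB18, used it as the control of its RT-PCR and describes its expression as stable under drought in every cultivar. That description goes with RT-PCR gels, whereas the normalized reads given below were higher on day 10 than on day 0 in Gwiazda and Oberon. A pair of primers is shown because it marks the transcript that was also amplified from these cultivars. Both are written 5′ to 3′, with the last 5 bases, from which the polymerase extends, in capitals. The study also designed primers for a second of the 100 genes, PGSC0003DMG400008833, which is not on the list of 33 and for which no name was found.
cyclophilin forward: ctcttcgccgataccACTCC
cyclophilin reverse: tcacacggtggaaggTTGAG
PGSC0003DMG400008833 forward: aagcgagcgagtatgAGGAA
PGSC0003DMG400008833 reverse: ggcggtaagtaacagGGACA

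Cyclophilin ranked 59 of the 100. In Gwiazda it had 19605, 10116 and 24845 normalized reads on day 0, 25946, 31729 and 14650 (the library with the fewest reads) on day 6, and 43988, 51456 and 33878 on day 10. In Oberon the values were 19979, 10549 and 18287 on day 0, 29006, 21900 and 42273 on day 6, and 33883 and 38102 in the 2 libraries of day 10. All day 10 libraries of both cultivars were above all their day 0 libraries, and the day 6 libraries of Gwiazda overlapped those of day 0. In Tajfun, cyclophilin had 44361, 104712 and 44775 normalized reads on day 0, 53051, 49692 and 64641 on day 6, and 58865, 74878 and 53091 on day 10. In Owacja it had 47921, 82406 and 57844 on day 0, 43741, 36146 and 27343 on day 6, and 40716, 48603 and 69013 on day 10. The days of Tajfun overlapped, as did days 0 and 10 of Owacja. The log2 ratio of day 10 to day 0 in the authors' means was 1.25 in Gwiazda, 1.19 in Oberon, -0.03 in Tajfun and -0.22 in Owacja. The place of cyclophilin among these genes rests on single libraries of Tajfun and Owacja. Its Tajfun ratio was 0.51 without the day 0 library at 104712, and 0.0096 and 0.075 without the day 10 libraries at 58865 and 53091, and its Owacja ratio was 0.035 without the day 0 library at 82406. Day 0 of Gwiazda and Oberon was lower than every library of Tajfun and Owacja on any day, and by day 10 their libraries lay inside that range.

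The 2 genes with the widest gap were PGSC0003DMG400006183 and PGSC0003DMG400030968, neither of which has a name in the sources used here. PGSC0003DMG400006183 had the widest gap of all, 4.18 on the log2 scale. In Gwiazda it had 59.2, 223 and 161 normalized reads on day 0, 114, 335 and 118 on day 6 and 1251, 1498 and 1213 on day 10. In Oberon it had 107, 37.3 and 158 on day 0, 42.1, 10.5 and 0 on day 6 and 1105 and 1592 on day 10. In both cultivars the day 10 libraries stood far above those of days 0 and 6, and the Oberon libraries of day 6 included one listed at 0. In Tajfun it had 2020, 3642 and 1477 on day 0, 367, 433 and 431 on day 6 and 1270, 1525 and 687 on day 10. In Owacja it had 1024, 2900 and 1295 on day 0, 346, 482 and 447 on day 6 and 526, 389 and 600 on day 10. Both of these cultivars began far higher than Gwiazda and Oberon and had their lowest libraries on day 6. Day 10 of Tajfun overlapped day 0, and day 10 of Owacja overlapped day 6. On day 10 the ratio to day 0 was 3.17 in Gwiazda, 3.79 in Oberon, -1.01 in Tajfun and -1.75 in Owacja.

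PGSC0003DMG400030968 combined the second widest gap with 1 of the 2 lowest mean ratios in Tajfun and Owacja. Gwiazda had 0, 141 and 0 normalized reads on day 0, 564, 791 and 207 on day 6 and 514, 706 and 467 on day 10. Its Gwiazda ratio of 3.60 therefore rests on 1 day 0 library with reads and 2 listed at 0. In Oberon it had 189, 446 and 170 on day 0, 217, 235 and 407 on day 6 and 347 and 507 on day 10, so that the days overlapped. In Tajfun it had 1312, 935 and 950 on day 0, 394, 287 and 240 on day 6 and 212, 232 and 175 on day 10. In Owacja it had 517, 288 and 644 on day 0, 262, 340 and 375 on day 6 and 103, 113 and 120 on day 10. All day 10 libraries of Tajfun and of Owacja were below all of day 0, with ratios of -2.34 and -2.08. Without the only Gwiazda day 0 library that has reads, the gene falls under the minimum. Its Oberon ratio of 0.72 was 0.48 without the day 0 library at 170 and 0.42 without the day 10 library at 507, both under the bound of 0.5.

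PGSC0003DMG400001078 was the other gene with the lowest ratios in Tajfun (-2.37) and Owacja (-1.50). In Gwiazda it had 498, 734 and 531 normalized reads on day 0, 2152, 1285 and 689 on day 6 and 5951, 7054 and 8311 on day 10. In Oberon it had 340, 442 and 179 on day 0, 169, 133 and 172 on day 6 and 418 and 580 on day 10. The day 10 libraries of Gwiazda were far above all its others, whereas those of Oberon overlapped day 0, and the Oberon ratio of 0.69 was far under the 3.60 of Gwiazda. It was 0.41 without the Oberon day 0 library at 179 and 0.44 without the day 10 library at 580, under the bound of 0.5. In Tajfun the gene had 2210, 1786 and 2557 on day 0, 456, 486 and 454 on day 6 and 402, 583 and 260 on day 10. In Owacja it had 1814, 1415 and 2879 on day 0, 628, 496 and 520 on day 6 and 853, 725 and 543 on day 10. Both had already reached their low level on day 6, with no overlap between day 0 and either drought day.

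PGSC0003DMG400008833, taken here after its values were seen because of its primers, was above its day 0 level on both drought days in Gwiazda and Oberon. In Gwiazda it had 488, 837 and 959 normalized reads on day 0, 1780, 3421 and 2929 on day 6 and 2256, 2339 and 2452 on day 10. In Oberon it had 517, 289 and 589 on day 0, 1479, 935 and 1668 on day 6 and 873 and 912 on day 10. Each drought library of these cultivars was above each of day 0. In Tajfun it had 5260, 4997 and 4536 on day 0, 2307, 3422 and 1850 on day 6 and 2104, 2992 and 1834 on day 10. Owacja had 2627, 3350 and 3745 on day 0, 2500, 1766 and 1725 on day 6 and 2508, 2345 and 3350 on day 10. All drought libraries of Tajfun were below day 0, whereas day 10 of Owacja overlapped it.

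**Figure D1:**
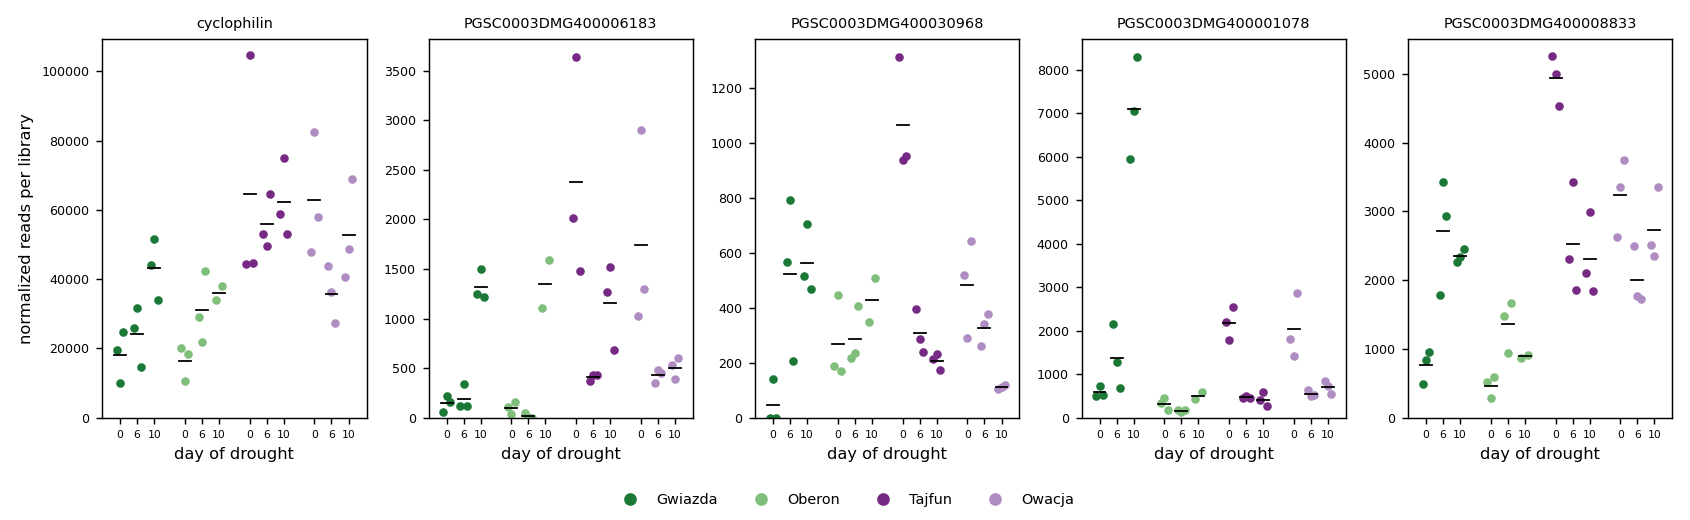
Normalized reads per library (vertical axes from 0) of cyclophilin and the 4 unnamed genes, by day of drought (0, 6 and 10) in Gwiazda, Oberon, Tajfun and Owacja; points are libraries and lines are group means. Gwiazda and Oberon start below Tajfun and Owacja in each panel except for part of the libraries of PGSC0003DMG400030968, and the Gwiazda day 10 libraries of PGSC0003DMG400001078 reach 8311.

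Over the 100 genes, the ratio of day 10 to day 0 that chose them had a median of 1.09 in Gwiazda, 0.94 in Oberon, -0.44 in Tajfun and -0.71 in Owacja, against 0.02, 0.06, 0.07 and 0.03 over all genes above the minimum. The ratio was at least 1, a doubling, in both Gwiazda and Oberon for 36 genes and at least 2 for 3. Tajfun and Owacja both had a ratio of at most -0.5 in 38 genes, 1 of them had it in 40, and neither had it in 22. Taken singly, it was found in 45 genes in Tajfun and 71 in Owacja, against 4578 and 4872 of the 15322 genes above the minimum. The counts that join 2 cultivars were not taken over all genes. As these ratios chose the genes, the counts describe them and test nothing. The gap ran to 4.18 at its widest and was 0.90 for the gene ranked 100 and 0.89 for the gene ranked 101, so no break in the values separates the genes kept from those left out. The same bounds with the cultivars exchanged were met by 125 genes for Tajfun and Owacja and by 9 to 32 genes for the 4 ways of combining 1 cultivar of each pair.

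All 100 genes were checked at the level of libraries. In Gwiazda, all 3 day 10 libraries were above all 3 of day 0 for 83 of the genes, where 27.6% of all genes above the minimum did so. In Oberon, with 2 day 10 libraries against 3, this was so for 87 genes, against 30.4% of all genes. All day 10 libraries were below all of day 0 for 30 genes in Tajfun (28.7% of all genes) and for 65 in Owacja (30.7% of all genes). As the bounds were set on these same means, the counts describe how evenly the libraries carried them and test nothing. All day 10 libraries were higher in both Gwiazda and Oberon in 74 genes (21.3% of all genes) and lower in both Tajfun and Owacja in 23 (21.9% of all genes). Both held in 15 genes, and in 0.131% of all genes. Scaling both group means of a table to an equal total, on top of the authors' scaling, shifted the ratios of all genes by 0.31 in Tajfun and 0.28 in Owacja (log2). After this, 60 of the 149 genes still met the bounds.

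**Figure D2:**
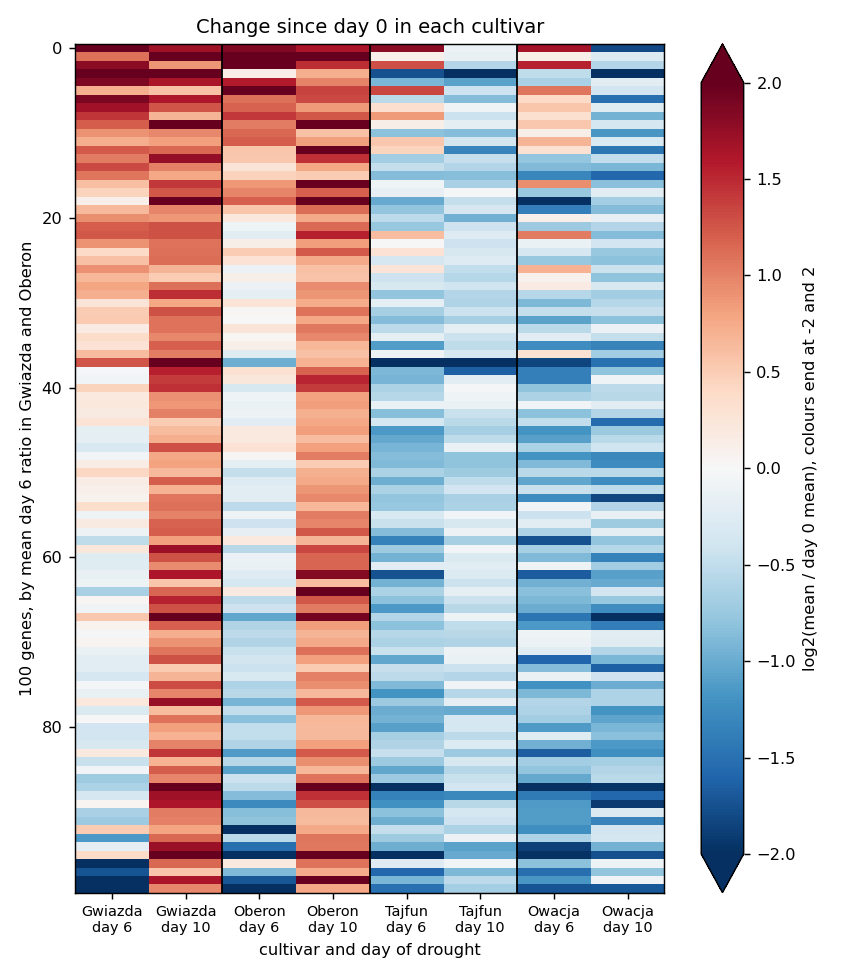
Each row is 1 of the 100 genes and each column a cultivar on day 6 or day 10 of drought; colour gives the log2 ratio of the group mean to the day 0 mean of the same cultivar. The day 10 columns of Gwiazda and Oberon are red and those of Tajfun and Owacja blue by the choice of the genes, whereas the day 6 columns of Gwiazda and Oberon run from red to blue (median ratios 0.17 and -0.18) and those of Tajfun and Owacja are mostly blue.

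Day 6 entered the choice of the genes only through the minimum, and it shows when the day 10 pattern was reached. By day 6, the median of these genes was near the day 0 level in Gwiazda and Oberon and below it in Tajfun and Owacja. The median ratio of day 6 to day 0 was 0.17 in Gwiazda and -0.18 in Oberon, and it was -0.72 in Tajfun and -0.76 in Owacja. With both group means of a table scaled to an equal total, the last 2 were -0.41 and -0.37. Over all genes above the minimum the 4 medians were between 0.01 and 0.07. In Gwiazda 33 genes were up by at least 0.5 on day 6 (22.5% of all genes), and in Oberon 18 were (23.2% of all genes), a share above that of all genes in Gwiazda and below it in Oberon. In Gwiazda 11 genes and in Oberon 28 were down by at least 0.5, against 24.8% and 24.5% of all genes. In Tajfun 68 genes were down by at least 0.5 on day 6 (26.0% of all genes) and 6 were up (26.4% of all genes). In Owacja 66 genes were down (27.1% of all genes) and 9 were up (28.0% of all genes). These ratios use the day 0 libraries that also chose the genes, and they were not tested.

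Between day 6 and day 10 came most of the difference in Gwiazda and Oberon. In Tajfun the median moved up, opposite to its fall by day 6, with 67 genes above their day 6 mean and 33 below. Of the 15322 genes above the minimum, 7794 were above their day 6 mean in Tajfun and 7528 below. The Owacja median hardly changed. The ratio of day 10 to day 6 had a median of 0.94 in Gwiazda and 1.13 in Oberon, against 0.24 in Tajfun and -0.05 in Owacja. It was at least 0.5 in 75 genes in Gwiazda (25.6% of all genes) and in 83 in Oberon (25.8% of all genes), and at most -0.5 in 3 genes in Gwiazda (25.0% of all genes) and 4 in Oberon (25.2% of all genes). In Tajfun 32 genes were up by at least 0.5 (21.1% of all genes) and 12 down (20.8% of all genes), and in Owacja 17 were up (22.6% of all genes) and 24 down (25.4% of all genes). These ratios share the day 10 libraries with the choice of the genes.

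Taking the genes one by one, 15 were up by at least 0.5 on day 6 in both Gwiazda and Oberon (13.2% of all genes), 18 in Gwiazda alone (9.26%), 3 in Oberon alone (9.95%) and 64 in neither (67.5%). On day 6 both cultivars were at or below their day 0 level in 31 genes (35.4% of all genes). These counts lie near those of all genes except for the few in Oberon alone and the more in Gwiazda alone. Up by at least 0.5 between day 6 and day 10 in both cultivars were 69 genes (17.1% of all genes), of which 59 had not been up on day 6 in either (11.3% of all genes). The median over genes of the day 6 ratio as a share of the day 10 ratio was 13.4% in Gwiazda and -15.4% in Oberon. In both Tajfun and Owacja, 58 genes were down by at least 0.5 on day 6 (20.0% of all genes). Of these, 50 were among the 69 genes (3.13% of all genes had both). PGSC0003DMG400006183 had this late course, with a day 6 ratio of 0.38 in Gwiazda and -2.49 in Oberon. PGSC0003DMG400008833 had the early one, with 1.86 and 1.59. Cyclophilin lay between them, with 0.44 in Gwiazda and 0.97 in Oberon.

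**Figure D3:**
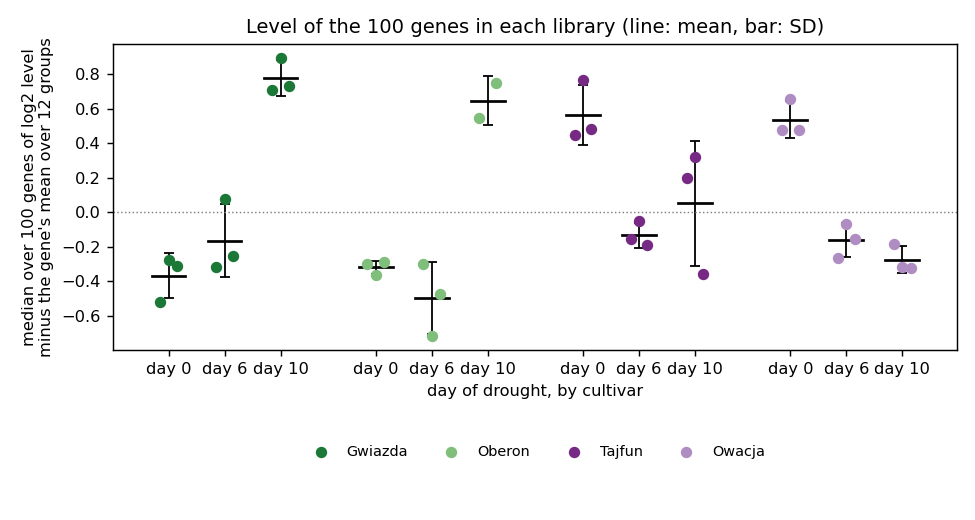
Median over the 100 genes of the log2 level, less each gene's mean over the 12 groups, for each library (points), by day of drought in Gwiazda, Oberon, Tajfun and Owacja; lines are means over libraries and bars the SD (n = 3, and 2 for Oberon on day 10). Gwiazda and Oberon stay between -0.72 and 0.08 on days 0 and 6 and reach 0.55 to 0.90 on day 10, and Tajfun and Owacja start between 0.45 and 0.77.

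Single libraries gave the same course. Those of days 0 and 10 also chose the genes, so their levels describe how evenly the libraries carried it and test nothing. The median level of the 100 genes, expressed as log2 relative to each gene's mean over the 12 groups, was between -0.52 and -0.28 in the 3 Gwiazda libraries of day 0, between -0.32 and 0.08 on day 6 and between 0.71 and 0.90 on day 10. In Oberon it was between -0.36 and -0.29 on day 0, between -0.72 and -0.30 on day 6, and 0.55 and 0.75 on day 10. In neither cultivar did a library of day 10 overlap those of days 0 and 6. In Tajfun the level was between 0.45 and 0.77 on day 0 and between -0.19 and -0.05 on day 6. On day 10 the 3 Tajfun libraries spread widely, at 0.20, 0.32 and, in the library with the fewest reads, -0.36. In Owacja it was between 0.48 and 0.66 on day 0, between -0.27 and -0.07 on day 6 and between -0.33 and -0.19 on day 10. Over all genes above the minimum, the same measure was between -0.02 and 0.04 in each of the 35 libraries. The Tajfun library at -0.36 moved the choice of genes most, for without it 82 of the 100 still met the bounds, which 119 genes then met in all. On this scale the median day 10 ratio of Tajfun was -0.52 with all 3 libraries and -0.31 without that one.

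Within a group, the 100 genes also deviated together, though weakly. After the group mean was taken from each library, the mean pairwise Pearson's r between the genes was 0.14 over 35 libraries, and 0.0033 over all genes above the minimum. Without the 3 Oberon libraries of day 6 the values were 0.16 and 0.0022. The libraries share their scaling and the plants their harvest. All libraries but those of day 6 also gave the ratios that chose the genes. That choice favours genes shifted the same way by the same outlying library, so part of the r can come from the choice. The r was not taken over the day 6 libraries alone. It is given as a description only and tests nothing.

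Values listed at 0 were spread unevenly over the groups, in part as they were over all genes. In 16 of the 100 genes at least 1 library was listed at 0, giving 47 such values. The share of all genes with such a library was not taken. Gwiazda and Oberon on days 0 and 6 held 42 of these, and on day 10 these cultivars held 0. The Oberon day 6 library with the fewest reads held 11, and 4.55% of all genes above the minimum were also listed at 0 there, where the other 34 libraries had at most 2.41%. That 2.41% was in the middle Gwiazda library of day 6 by reads, which held 9. Both libraries with the largest shares over all genes thus held the most of these values. The middle Tajfun library of day 0, with 1.22% of all genes at 0, held 0 of them. In contrast, the Gwiazda day 0 libraries with the most and the fewest reads held 5 and 6. Only 0.503% and 0.809% of all genes were at 0 there, and these libraries entered the ratios that chose the genes. Such values stood beside reads in other libraries of the same group, and an estimate that failed cannot be told apart from absence of reads. In the 84 genes with reads in every library, the median ratio of day 10 to day 0 was 1.07 in Gwiazda, 0.91 in Oberon, -0.43 in Tajfun and -0.68 in Owacja.

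Set side by side, the pairs crossed over. The mean log2 level in Gwiazda and Oberon less that in Tajfun and Owacja had a median of -0.83 on day 0, -0.19 on day 6 and 0.80 on day 10. It was above 0 in 5 genes on day 0, in 29 on day 6 and in 92 on day 10. Days 0 and 10 are the libraries that chose the genes, and a choice by a growing difference favours genes that begin below 0 and end above it, so these values describe the genes and test nothing. Over all genes above the minimum, the medians were -0.02, -0.04 and 0.01, and 48.0%, 46.6% and 50.8% of genes were above 0.

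**Figure D4:**
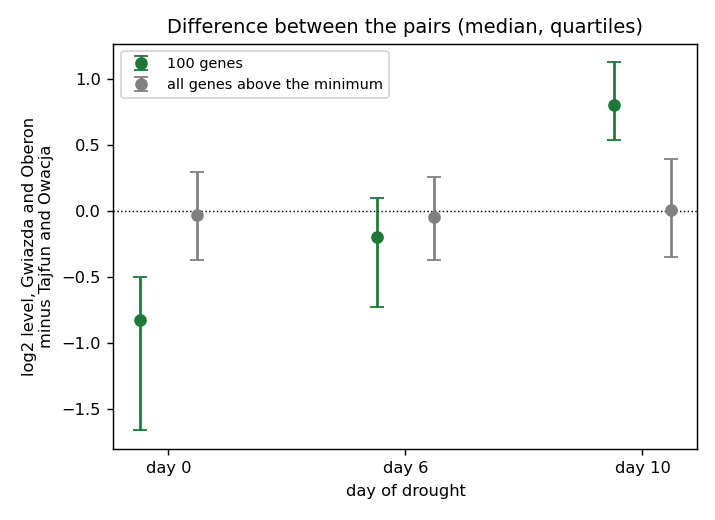
Log2 level in Gwiazda and Oberon minus that in Tajfun and Owacja on days 0, 6 and 10 of drought, for the 100 genes (green) and all genes above the minimum (grey); points are medians over genes and bars the quartiles. The median of the 100 genes passes from -0.83 through -0.19 to 0.80, while that of all genes stays between -0.04 and 0.01.

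The difference between the pairs was tested on day 6, as the ratios that chose the genes did not use those libraries. The day 6 libraries entered through the minimum alone. The choice still bears on this test, since 95 of the 100 genes were lower in Gwiazda and Oberon on day 0. Any level difference between cultivars that lasts from day 0 to day 6 carries over, so the counts below are not independent of the choice. Without 1 of the day 6 libraries, 96 to 100 of the genes still met the bounds, and PGSC0003DMG400006183 fell under the minimum without the Oberon library with the most reads. The test was limma on log2(normalized reads + 1) of the 12 day 6 libraries, two-sided, with Benjamini-Hochberg adjustment over 18981 genes with a mean above 10 reads. Of the 100 genes, 6 were higher in Gwiazda and Oberon than in Tajfun and Owacja at an adjusted p under 0.05 (6.66% of all genes tested) and 14 were lower (9.10% of all genes tested). In this fit the share of higher genes is close to that of all genes tested, and that of lower genes is above it. The 18981 genes tested are more than the 15322 from which the 100 were chosen, so the shares are not matched. The largest difference among the named genes was that of PGSC0003DMG400006183, which was lower in Gwiazda and Oberon by a log2 difference of -3.52 (SE 0.73, adjusted p = 0.0081, limma) and in each of the 12 fits without 1 library. Cyclophilin was lower by -0.75 (SE 0.23, adjusted p = 0.0466, limma), and 10 of the 12 fits that left out 1 library put it above 0.05 (up to 0.105). The other named genes did not pass, with differences of 0.18 (SE 0.32) for PGSC0003DMG400030968, -0.19 (SE 0.24) for PGSC0003DMG400001078 and -0.24 (SE 0.22) for PGSC0003DMG400008833. Without 1 library the counts were between 1 and 8 higher and between 5 and 15 lower, so they rest on single libraries. Without the Oberon library of day 6 that correlated least with its group, they were 5 higher and 15 lower. The spread in this test is that between plants of a cultivar, and 2 cultivars stand for each pair.

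**Figure D5:**
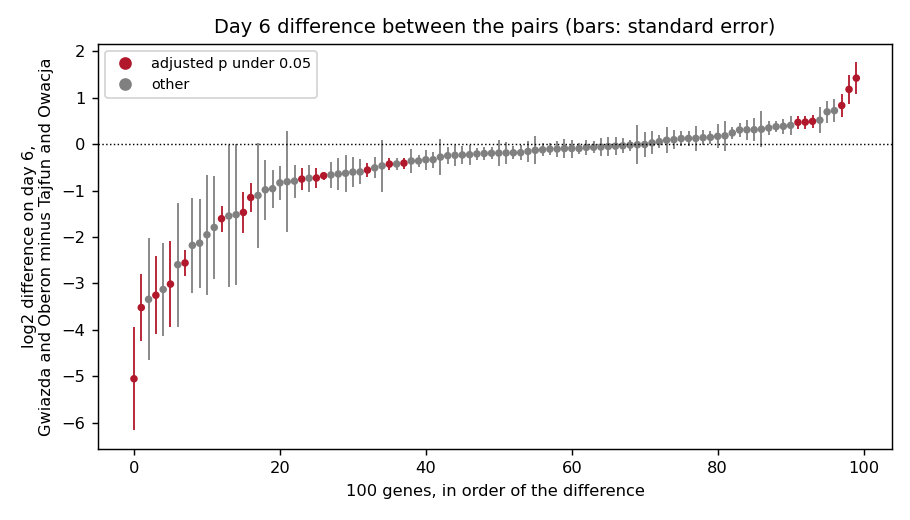
Log2 difference on day 6, Gwiazda and Oberon minus Tajfun and Owacja, for the 100 genes in order of size; points are limma estimates, bars the standard error, and red marks an adjusted p under 0.05. Of the red genes, 14 lie below 0 and 6 above it.

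Within the pairs on day 6, genes with a higher level in the drought-tolerant Gwiazda outnumbered those with a higher level in the drought-sensitive Oberon. In the authors' means the median log2 ratio of Gwiazda to Oberon was 0.33, against 0.01 over all genes above the minimum. The ratio was at least 1.5-fold higher in Gwiazda in 32 genes (15.7% of all genes) and at least 1.5-fold lower in 10 (17.0% of all genes). Tajfun and Owacja were closer, with a median of 0.05, 16 genes higher in Tajfun by at least 1.5-fold (11.7% of all genes) and 8 lower (10.8% of all genes). In limma on the recovered libraries, a test added after the data were seen, 8 genes were higher in Gwiazda than in Oberon (3.46% of all genes tested) and 1 lower (4.10%), with 4 to 11 higher and 0 to 3 lower without 1 library. The fewest, 4 and 0, were found without the middle Gwiazda library by reads, and 10 and 0 without the Oberon library that correlated least. In Tajfun against Owacja 0 were higher (1.89% of all genes tested) and 2 lower (2.27%), and 11 of the 100 had an unadjusted p under 0.05 in either direction (16.0% of all genes tested). Genes higher in Gwiazda included PGSC0003DMG400001078, by 2.97 (SE 0.33, adjusted p = 3.5e-04, limma), whose 3 Gwiazda libraries of day 6 were above all 3 of Oberon. PGSC0003DMG400006183 was higher by 4.39 (SE 1.03, adjusted p = 0.0254, limma), with 1 Oberon library listed at 0 and an adjusted p above 0.05 (up to 0.0793) in 2 of the 12 fits without 1 library. PGSC0003DMG400008833 was 0.98 apart (SE 0.31, adjusted p = 0.0813, limma) and cyclophilin -0.38 (SE 0.32, adjusted p = 0.485, limma), neither past the threshold. The difference between the cultivars of a pair was larger in Gwiazda and Oberon than in Tajfun and Owacja in 5 of the 100 genes (3.16% of all genes tested) and smaller in 0 (3.07%), and 24 genes had an unadjusted p under 0.05 in either direction (21.7% of all genes tested). Without 1 library these counts were 2 to 9 and 0 to 2, the fewest being 2 without the Tajfun library with the fewest reads or the middle Owacja library.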

How the data were processed

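Per the labels and the methods of the study, total RNA of potato leaves was sequenced as strand-specific paired reads on an Illumina HiSeq, mapped with TopHat2 to the PGSC potato genome, assigned to transcripts with Flux Capacitor and compared with DESeq. The signal columns the authors deposited, in 18 tables, hold the mean of normalized reads over the libraries of a group, scaled anew in each table. The authors' fold changes, p-values and adjusted p-values in these tables were not used. Whole reads of 35 libraries were recovered from the 3 tables of each group (100% of values within 0.001 reads), scaled by the median of ratios and tested with limma 3.58.1 in R 4.3.3, with a trend of the variance on the mean. Recovery and test were tested on simulated data. Ratios are of the authors' means within a table, and levels are normalized reads of single libraries. The genes and lists were chosen with earlier results of these data known. Named are the members that the study names, the 2 with the widest gap and the 2 lowest in Tajfun and Owacja; one more was added for its primers. The p-values measure the spread between plants of a group. Alternatives were another minimum, pseudocount, scaling and bounds, and leaving out each library.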

Additional observations from a re-analysis of the deposited data

Results flagged for a closer look

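One result among the named genes differed between the pairs on day 6. The difference between the drought-tolerant and the drought-sensitive cultivar in PGSC0003DMG400001078 was larger in Gwiazda and Oberon than in Tajfun and Owacja by 3.20 on the log2 scale (SE 0.47, adjusted p = 0.0024, limma). The 2 differences were 2.97 for Gwiazda minus Oberon and -0.23 for Tajfun minus Owacja. It passed in each of the 12 fits without 1 library, where it was between 2.80 and 3.62.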

How the results depend on the processing

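With equal totals, 60 genes met the bounds, all of them among the 100, and the median ratio to day 0 was -0.41 (Tajfun) and -0.37 (Owacja) for day 6, and for day 10 it was -0.13 and -0.43. Bounds of 1 and 0 left 36 genes, and bounds of 0.5 and -0.25 left 77. With a minimum of 100 reads or none, 106 and 190 genes met the bounds and 70 of the 100 were kept in each case. Without 1 library, 119 to 178 genes met the bounds, 78 to 100 were kept, and 40 met the bounds in every such fit. At a fold of 2, 10 genes were higher and 3 lower in Gwiazda than in Oberon on day 6, and 6 higher and 5 lower in Tajfun than in Owacja. limma called 8 and 1, and 0 and 2. Between the pairs on day 6, library totals gave 2 higher genes, and leaving out 1 library gave 1 to 8 higher and 5 to 15 lower. In those fits the difference between the pairs was between -0.021 and 0.46 for PGSC0003DMG400030968 and between -0.39 and 0.024 for PGSC0003DMG400001078, and each turned its sign without 1 Gwiazda library. No paired analysis was possible because the deposited columns and the recovered libraries carry no replicate number. The other settings kept the directions of the medians. In the 16 genes with a library at 0, low depth and a failed estimate were not told apart.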
